A study of Mus musculus with 7 samples.

Results

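One library of mouse embryoid bodies carrying an inverted promoter of Meteor, titled pInv, was compared with 2 wild-type libraries, WT1 and WT2, chosen by title: 3 of the 7 libraries of the series. Embryoid bodies are aggregates in which embryonic stem cells leave pluripotency and start to form the germ layers. All libraries came from the R1 stem cell line and were collected on day 4. Cells had been freed of feeder fibroblasts on gelatin for 20 min, hung in drops of 27 µl with 500 cells each, and pooled on day 2. RNA was extracted with Trizol and read from the 3′ end with the Lexogen QuantSeq kit, per the labels. The other libraries were titled pKO1 and pKO2 (promoter knockout), Ctrl (empty vector) and KD1 (CRISPR knockdown, called KD below). They serve here to show whether the inversion library or the wild type is the one that stands apart.

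The genotype field of the labels goes against the titles. It calls both libraries titled WT a knockout of the Meteor promoter, the library titled pKO1 an inversion, and the libraries titled pKO2 and pInv wild type. Groups here follow the titles, and every direction below rests on them. The targeted transcript could not check the titles, because no feature of the files matched Meteor by name. The inversion rests on 1 library, nothing in the labels says how many clones or cultures it came from, and a p-value here reflects only how far the libraries of WT and pKO lay apart, which may be technical.

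Meteor is a long non-coding RNA gene near Eomes, and the study asked how parts of that locus bear on Eomes. Eomes encodes a T-box transcription factor that acts in the primitive streak, where epiblast cells turn into mesoderm and definitive endoderm. An inverted promoter leaves the DNA of the promoter in place while turning its direction of transcription. Day 4 embryoid bodies usually hold epiblast-like cells beside cells of the streak.

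The libraries held between 1898350 (WT2) and 2564478 (WT1) expected counts, the fractional read counts that RSEM estimates per gene, with 2260792 in pInv. The precursor of ribosomal RNA took 12.9% of them in pInv, 17.4% in WT1 and 24.1% in WT2. Levels are given as CPM, counts scaled to a common library size with TMM factors (edgeR's trimmed mean method). In these units, 3 counts correspond to 1.35 CPM in pInv, 1.20 in WT1 and 1.92 in WT2. The labels name no molecular identifiers, and reads are therefore not independent molecules: every interval or floor below covers counting error alone. WT2 stood apart from the rest: the SD of its log2 levels against the median of the other 6 libraries was 0.711, where the other libraries lay between 0.294 and 0.423 and pInv at 0.358.

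The markers of the labelled cells were present. Pou5f1, the pluripotency factor, stood at 1727 CPM in pInv, 1445 in WT1 and 2328 in WT2. T, the streak factor Brachyury, stood at 189.5 CPM in pInv, 313 in WT1 and 58.1 in WT2. Pou5f1 and T thus both lay between the wild-type libraries, as did Eomes, Mixl1, Lhx1, Foxa2, Sox17 and Nanog. Sox17 had 3 counts in pInv against 8 in WT1 and 0 in WT2, too few to order. Sox2, another pluripotency marker, lay below both, at 79.0 CPM in pInv against 93.7 in WT1 and 108 in WT2. Mesp1, a mesoderm marker, lay above both, at 87.5 CPM against 84.1 and 11.5. The counting interval of its ratio to WT1 included 1 (0.852 to 1.27). The 18 feeder fibroblast markers summed to 19.9 CPM in pInv against 25.5 and 21.1 in WT1 and WT2, with Col1a2, Postn, Fbln2 and Ccl2 at 0 in all 3. The 16 blood and endothelial markers summed to 28.4 CPM against 36.7 and 40.2. The 17 macrophage markers summed to 89.3 CPM in pInv against 77.4 and 144, nearly all of it C1qc at 82.6 CPM (183 counts) against 72.2 and 139. Cd14, Csf1r, Lyz1, C1qb and Adgre1 were at 0 in the 3 libraries, and C1qa had 2 counts in pInv.

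Eomes itself did not separate the inversion from wild type. It stood at 415 CPM in pInv (919 counts), between 488 in WT1 (1224 counts) and 332 in WT2 (520 counts). The log2 difference between pInv and WT was 0.02 (SE 0.37), and edgeR's quasi-likelihood test gave an adjusted p of 1. The other libraries stood at 359 (pKO1), 473 (pKO2), 448 (Ctrl) and 425 (KD) CPM, so all of them also lay inside the range of the wild type. Left with a single wild-type library, the difference was 0.32 against WT2 and -0.24 against WT1, so its direction follows the choice of library. In bulk RNA, fewer cells expressing a gene and less RNA per cell cannot be told apart.

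Among 14 tested genes near Eomes, pInv lay above both wild-type libraries in 2, between them in 5 and below both in 7, with a median log2 difference of -0.36. The same over all 10263 tested features was 29.0% above, 43.0% between and 28.0% below, with a median of -0.01. Azi2, which encodes an adaptor of innate immune kinases, stood at 16.2 CPM in pInv against 23.1 in WT1 and 31.3 in WT2. Oxsr1, a kinase of the oxidative and osmotic stress response, stood at 19.9 CPM against 24.7 and 30.0. Azi2 and Oxsr1 were lowest in pInv among all 7 libraries, yet neither ratio to the nearer wild-type library had a counting interval that excluded 1 (0.702, 95% interval 0.45 to 1.08, for Azi2 and 0.803, 0.533 to 1.20, for Oxsr1). Cmc1, a factor of cytochrome c oxidase assembly, had 1 count in pInv against 4 and 6, too few to order. None of the 14 reached an unadjusted p under 0.05.

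No single gene passed the test across all features: edgeR called 0 of 10263 (0.0%) at an adjusted p under 0.05, and 152 (1.48%) had an unadjusted p under 0.05. The inversion is described instead by where its library lay. It was above both wild-type libraries in 2977 features (29.0%), below both in 2873 (28.0%) and between them in 4413 (43.0%). It was at least 2-fold above both in 46 of 6629 features at 10 CPM or more (0.694%), and at least 2-fold below both in 48 of 5935 (0.809%). The same rule set against the same WT1 and WT2 gave 44 above and 49 below in pKO1, 52 and 29 in pKO2, and 45 and 57 in Ctrl, libraries that share those wild types. KD gave 333 above and 88 below. The counts for pInv are thus of the size seen in pKO1, pKO2 and Ctrl.

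**Figure D1:**
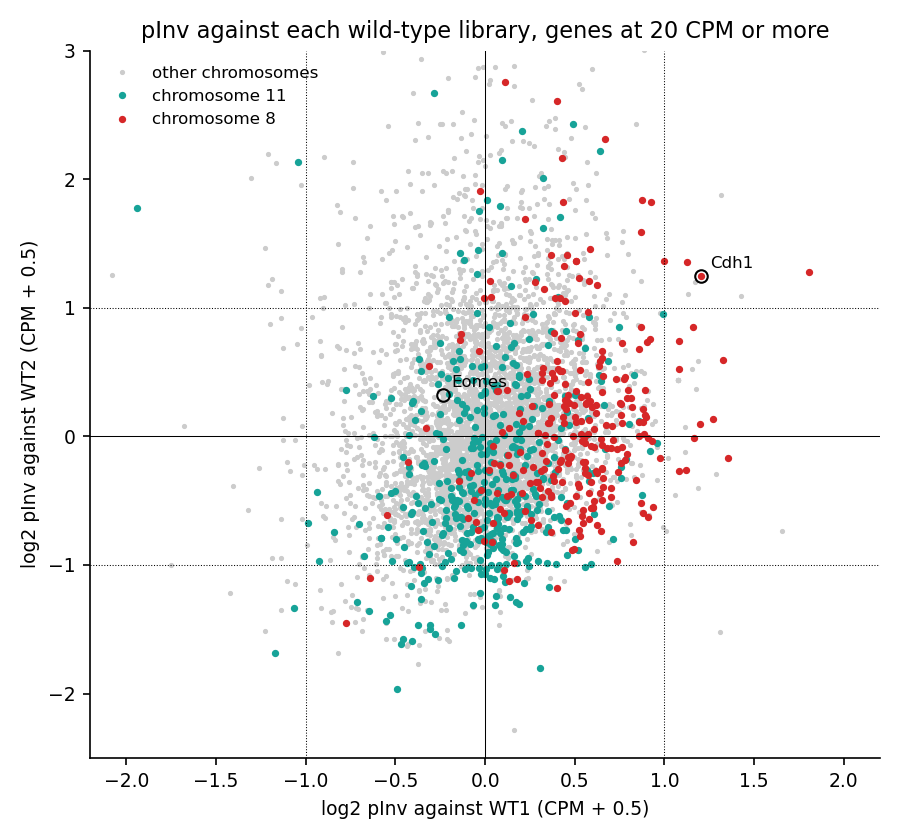
Each point is 1 gene at a mean of 20 CPM or more, placed by the log2 ratio of pInv to WT1 (horizontal) and to WT2 (vertical), both with 0.5 CPM added; 14 of 4839 genes lie beyond the axes. Dotted lines mark 2-fold, red is chromosome 8, green is chromosome 11, and circles mark Cdh1 and Eomes. Most red points (249 of 269 genes of chromosome 8) sit to the right of 0 on the WT1 axis, and most green points sit below 0 on the WT2 axis.

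The inversion library differed from WT1 over a whole chromosome. Genes of chromosome 8 stood higher in pInv than in WT1 along its full length, and higher in WT2 than in WT1 over most of it. Over the 269 chromosome 8 genes averaging 20 CPM or above, the median log2 difference between pInv and WT1 was 0.50 (1.41-fold, quartiles 0.32 and 0.65), and 249 of them were higher in pInv. The median for WT2 against WT1 was 0.51 (1.42-fold), and for pInv against WT2 it was 0.01. Medians of the 18 chromosomes other than 8 and 11 lay between -0.09 and 0.05 for pInv against WT1.

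The shift on chromosome 8 was even. In 8 equal runs of genes along the chromosome, the median of pInv against WT1 lay between 0.45 and 0.56. Against the median of the other 6 libraries, chromosome 8 stood at 0.47 in pInv and 0.43 in WT2, and between -0.18 and 0.07 in the remaining 5. In 151 of the 269 genes, pInv and WT2 were the highest pair of the 7. Because WT2 shares the shift, 48.3% of chromosome 8 genes lay above both wild-type libraries and 4.83% below both, where the chromosomes other than 8 and 11 ranged from 21.8% to 33.8% above and 20.7% to 34.8% below.

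WT2 and WT1 each had a block of their own that pInv lacked. On chromosome 11, 436 genes stood at a median of 0.43 in WT2 against the other 6 libraries and 0.04 in pInv, so pInv against WT2 had a median of -0.44 (0.737-fold) and pInv against WT1 one of 0.03. On chromosome 6, the 57 genes from Trnt1 to Strap stood at 0.58 in WT1 and -0.05 in pInv, so pInv against WT1 had a median of -0.56 (0.679-fold). WT1 was the highest of the 7 libraries in 45 of those 57 genes, and the rest of chromosome 6 stood at 0.03 in WT1. Strap, for example, stood at 219 CPM in WT1 and between 100.2 (pInv) and 114 (KD) in the other 6.

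In running medians over 21 genes, pInv reached 0.35 above the other libraries in 224 of 4309 windows, all of them on chromosome 8. WT1 did so in 54 windows, all on chromosome 6. WT2 did so in 507, of which 308 lay on chromosome 11 and 168 on chromosome 8, and it reached 0.35 below in 185. No window of pKO1, pKO2, Ctrl or KD reached 0.35 above. Gain of chromosome 8 or 11 is a known change of mouse embryonic stem cells in culture, given here as background. DNA copy number was not measured, and its part in these shifts was not tested. The 3 blocks were picked after the values were seen, so their medians are descriptions.

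**Figure D2:**
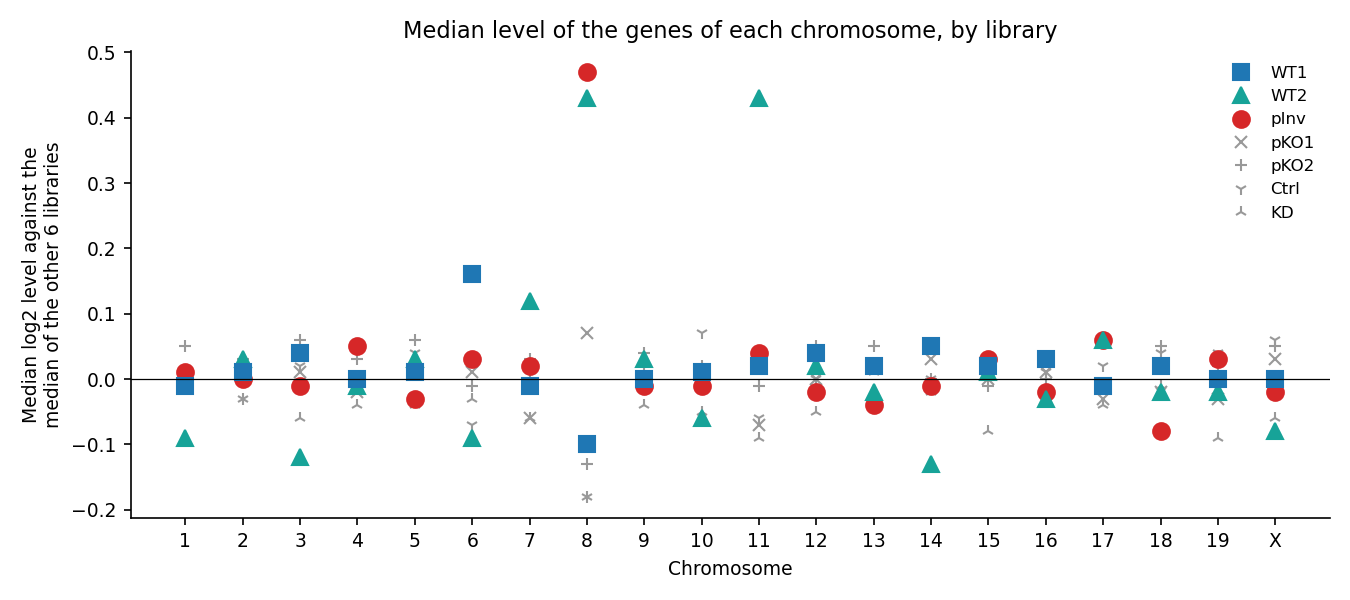
Each point is the median log2 level of the genes of a chromosome at a mean of 20 CPM or more in 1 library, against the median of the other 6 libraries; colours mark pInv, WT1 and WT2, grey marks the other libraries. On chromosome 8 pInv stands at 0.47 and WT2 at 0.43, and on chromosome 11 WT2 stands alone at 0.43.

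**Figure D3:**
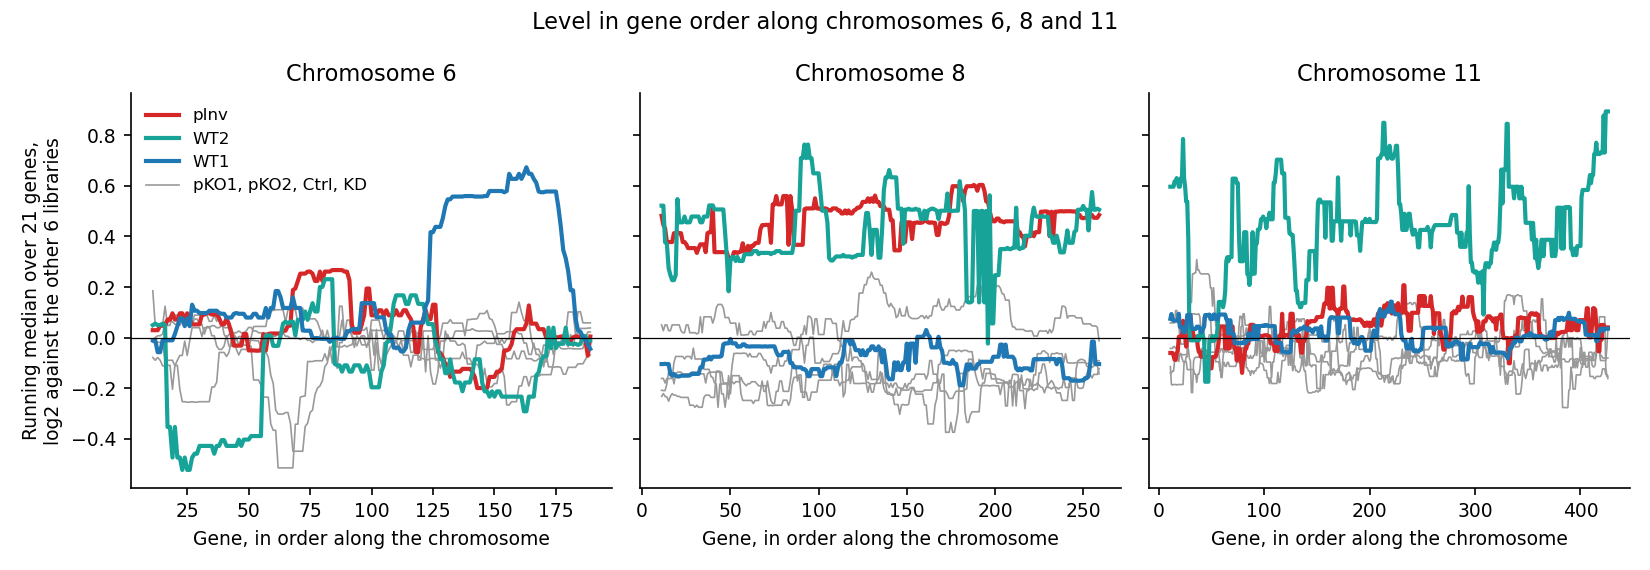
Running medians over 21 genes of the log2 level in a library against the median of the other 6, with genes in order along chromosomes 6, 8 and 11. The red line (pInv) stays raised along all of chromosome 8, and WT1 (blue) is raised over 1 stretch of chromosome 6. WT2 (green) is raised over most of chromosomes 8 and 11, but not along all of either. Its line falls to -0.024 at Pskh1 on chromosome 8 and to -0.175 at Zrsr1 on chromosome 11.

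The blocks reached the list of genes farthest from wild type. Of the 46 features at least 2-fold above both wild types, 11 were on chromosome 8 (23.9%), where 5.35% of tested features lie. Of the 48 below, 9 were on chromosome 11 (18.8%), where 8.36% of tested features lie, and 1 on chromosome 8. With chromosomes 8 and 11 and the chromosome 6 stretch left out, 34 remained above and 36 below. Under the same rule, chromosome 8 held 1 of the genes above in pKO1, 1 in pKO2, 0 in Ctrl and 14 in KD. Chromosome 11 held 9 of the 49 below in pKO1, 7 of 29 in pKO2, 13 of 57 in Ctrl and 16 of 88 in KD, so its share among the genes below was not a feature of pInv.

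Cdh1, which encodes E-cadherin, the adhesion protein of epithelial and epiblast cells, was the most abundant of the 46. It stood at 1458 CPM in pInv (3232 counts), 632 in WT1 (1584 counts) and 614 in WT2 (961 counts). The other libraries stood at 879.7 (pKO1), 551 (pKO2), 505 (Ctrl) and 638 (KD) CPM. The inversion library was the highest of 7, and its ratio to the nearer wild type was 2.31 (95% interval 2.17 to 2.45). Cdh1 lies on chromosome 8, and its ratio to WT1 exceeds the 1.41-fold median of that chromosome. The log2 difference was 1.23 (SE 0.36), and edgeR's quasi-likelihood test gave an unadjusted p of 0.00917 and an adjusted p of 1.

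Other genes of the 46 at 100 CPM or more were Coprs, Exosc6 and Spin2d. Coprs, a partner of the arginine methyltransferase PRMT5, stood at 259.9 CPM in pInv, 119 in WT1 and 101 in WT2, and at 118 or below in the other 4. Exosc6, a subunit of the RNA exosome, stood at 155 CPM against 77.4 and 60.0, and at 80.8 or below elsewhere. Coprs and Exosc6 are both on chromosome 8 and highest in pInv. Spin2d, a histone reader of the spindlin family on the X chromosome, stood at 102 CPM against 45.1 and 44.1. pKO1 (131), pKO2 (106) and Ctrl (124) stood higher still, so Spin2d was low in the wild types and KD rather than high in pInv alone.

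By the ratio to the nearer wild type, the genes farthest above were rarer. C7, a component of the complement attack complex, had 36 counts in pInv against 5 and 6, or 16.2 CPM against 1.99 and 3.83 (ratio 4.24, 95% interval 1.77 to 12.3). Rap1a, a small GTPase of cell adhesion, had 28 counts against 8 and 3 (ratio 3.96, 1.76 to 10.1), and KD stood higher than pInv, at 22.1 CPM against 12.6. Shcbp1, a cell cycle gene of chromosome 8, had 78 counts against 27 and 10 (ratio 3.27, 2.09 to 5.27). C7 and Shcbp1 were highest in pInv among the 7 libraries, and Rap1a was not.

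Mypop, a Myb-related repressor, stood at 28.4 CPM in pInv against 8.77 and 6.39, and KD (18.7) and pKO1 (18.3) also stood above both wild types. Scube2, a secreted protein that helps release hedgehog ligands, stood at 12.2 CPM against 3.59 and 3.19, with 3.78 the highest elsewhere. Both were highest in pInv, but only Scube2 was also far from the other 4 libraries. Ahnak, a giant scaffold protein, stood at 13.5 CPM against 3.99 and 3.83, but at 11.8 to 18.4 in the other 4, so the wild-type libraries were the low ones. Cldn4, a tight junction claudin, had 24 counts in pInv against 9 in WT1 and 0 in WT2, and pKO1 stood higher than pInv at 12.2 CPM against 10.8. The remaining genes of the 12 were Gm3636, 1700012B07Rik, Zfp607a, Spink1 and Rin1, with ratios from 2.61 (Rin1) to 3.42 (Gm3636).

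Tex15, a germ cell gene of chromosome 8 with 1 of the 5 smallest p-values, stood at 34.7 CPM in pInv (77 counts) against 9.57 in WT1 and 14.0 in WT2. The other libraries lay between 21.8 and 23.8 CPM, so pInv was the highest and the wild types the lowest. Sox3, a neural progenitor factor on the X chromosome, stood at 15.3 CPM (34 counts) against 5.98 and 3.83, while pKO1 stood at 14.7 CPM. Of all 46 features, 40 were highest in pInv among the 7 libraries, where 13.8% of all tested features were. A counting interval that excluded 1 was found for 42. The 46 were picked on the same pInv and wild-type values, so both counts follow in part from that choice and are no separate support. Their median level was 15.6 CPM in pInv against 5.58 in WT1 and 5.75 in WT2. In 27 of them another gene lay within 2 kb, a distance over which most of the authors' gene models run past the annotated transcript end, so reads of a neighbour may be included and their part was not tested. Another 2 were further copies of a transcript (Btg3 and Ube2j2), whose reads the estimate can split, and 1 was merged.

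**Figure D4:**
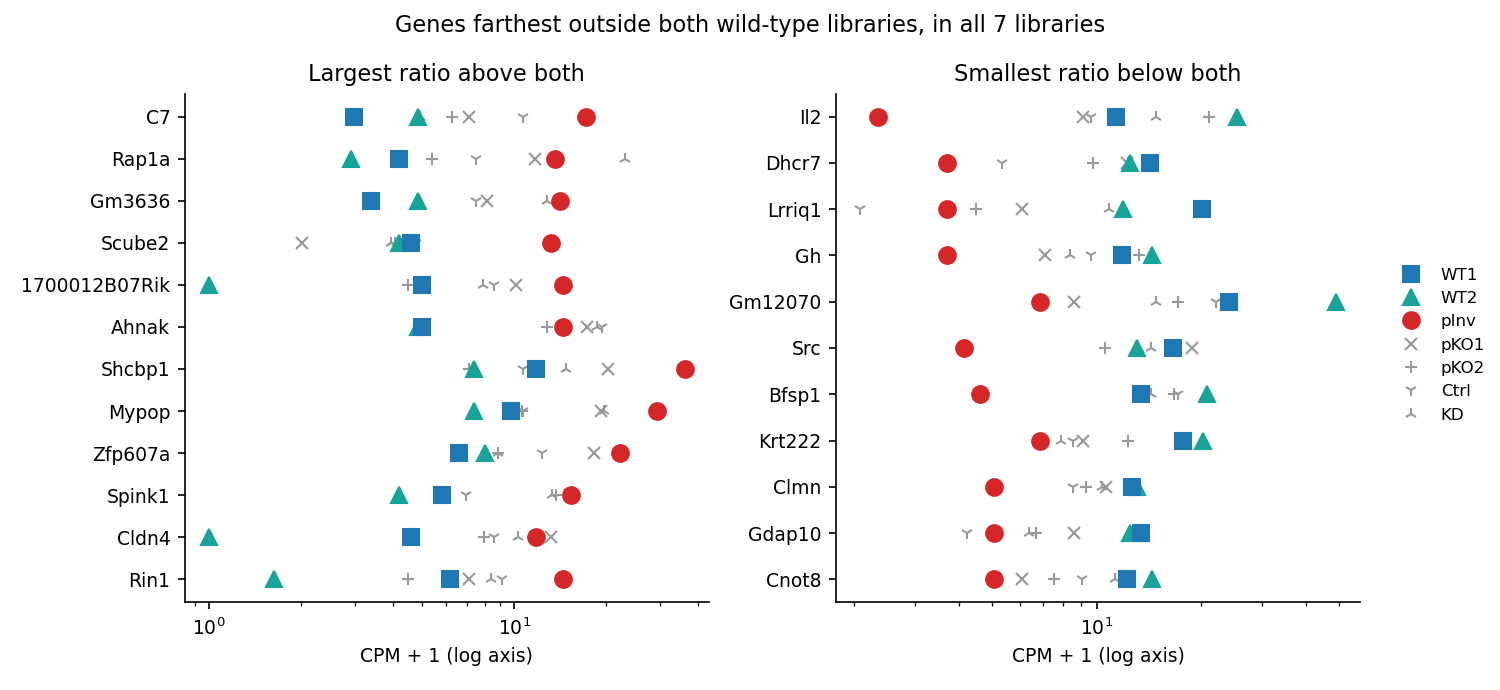
CPM plus 1 on a log axis in all 7 libraries for the 12 single genes with the largest ratio of pInv to the nearer wild type (left) and 11 of those with the smallest (right); red circles are pInv, blue squares WT1, green triangles WT2 and grey marks the other libraries. Scube2 stands apart in pInv, while Ahnak is low only in WT1 and WT2.

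Genes at least 2-fold below both wild types were all under 100 CPM in pInv, with a median of 5.87 CPM against 14.2 in WT1 and 16.0 in WT2. Il2, which encodes the T cell growth factor interleukin 2, had 3 counts in pInv against 26 and 38 (ratio 0.131, 95% interval 0.0253 to 0.426). Src, the tyrosine kinase, had 7 counts against 39 and 19 (ratio 0.260, 0.0925 to 0.647). Il2 and Src were lowest in pInv among the 7 libraries, the nearest being 8.13 CPM (pKO1) for Il2 and 9.60 (pKO2) for Src.

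Dhcr7, the enzyme of the last step of cholesterol synthesis, stood at 2.71 CPM in pInv (6 counts) against 13.2 and 11.5, with Ctrl the next lowest at 4.32. Bfsp1, a lens filament protein, stood at 3.61 CPM against 12.4 and 19.8, and at 12.2 or more elsewhere. Bfsp1 was set apart from all 6 other libraries, Dhcr7 less far. Lrriq1 had 6 counts against 48 and 17, or 2.71 CPM, but Ctrl was lower at 1.08 CPM. Gm12070, on chromosome 11, stood at 5.87 CPM against 23.1 and 47.9, with pKO1 next at 7.62. Further genes of this set were Gh, Krt222, Clmn, Gdap10 and Cnot8, with ratios from 0.251 (Gh) to 0.364 (Cnot8). Gh, Krt222 and Cnot8 are also on chromosome 11.

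Of the 48 features below, 42 were lowest in pInv among the 7 libraries, where 12.6% of all tested features were. The 48 were picked on the same pInv and wild-type values, so that count follows in part from the choice. Another gene lay within 2 kb in 33 of them. The share among all tested features is not given here. This count and that for the 46 above therefore cannot be read as a trait of those genes. A further copy of Srp54c had 1 count in pInv against 38 and 16 and the smallest p of edgeR's quasi-likelihood test (0.000876 unadjusted, adjusted p of 1). It is uncertain, since near-identical copies share reads. Cox4i2, an oxygen-responsive subunit of cytochrome c oxidase, had 0 counts in pInv against 12 in both wild types, or up to 1.35 CPM against 4.79 and 7.66. The other libraries lay between 2.95 and 8.64 CPM. Genes at the edge of the rule were Exosc6, just inside at a ratio of 2.01, and Vcan, just outside at 21.7 CPM against 10.8 and 10.9. Below, Tapbpl lay inside at a ratio of 0.499 and Prim1 outside at 0.501.

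Among the gene lists with 10 or more tested members, glycolysis and the hypoxia response had the lowest median. This list holds enzymes that turn glucose into lactate and targets of the hypoxia-inducible factor. Of 33 tested members, pInv was below both wild types in 17, between them in 14 and above both in 2, against 28.0%, 43.0% and 29.0% of all features. The median log2 difference was -0.49, and it was -0.41 against WT1 alone and -0.57 against WT2 alone. No member passed the test or had an unadjusted p under 0.05, and no list was tested as a set.

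Of the 17 genes below both wild types, pInv was the lowest of all 7 libraries in 5, and in the others at least 1 further library lay as low or lower. That is 5 of the 33 tested members, where pInv was the lowest in 12.6% of all tested features. Egln3, a prolyl hydroxylase that marks the hypoxia-inducible factor for breakdown, stood at 18.5 CPM in pInv against 32.7 in WT1 and 41.5 in WT2, and at 12.2 to 21.1 in the other 4. Slc2a1, the glucose transporter GLUT1, stood at 11.7 CPM against 19.5 and 26.8, and at 11.9 to 27.1 elsewhere. Ero1a, an oxidase of disulfide formation, stood at 11.3 CPM against 17.9 and 37.0, with KD lower at 8.35. Vegfa, the vascular growth factor, had 6 counts in pInv against 17 and 14. Ldha, lactate dehydrogenase A, stood at 1055 CPM against 1563 and 2273, and at 1281 or more in the other 4. So Ldha and Slc2a1 were lowest in pInv, and Egln3 and Ero1a were not.

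The blocks touched the hypoxia list as well. It has 1 member on chromosome 8, 3 on chromosome 11 and 3 in the chromosome 6 stretch. With those left out, 14 of 26 lay below both wild types and 1 above, with a median of -0.47. Tpi1, triose phosphate isomerase, in the chromosome 6 stretch, stood at 224 CPM in pInv between 489.7 in WT1 and 139 in WT2. Slc16a3, the lactate exporter on chromosome 11, stood at 257 CPM against 341 in WT1 and 776 in WT2. Gapdh, in the chromosome 6 stretch, went the other way at 1943 CPM against 1662 and 1626, the highest of 7.

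The core of the hypoxia response element, ACGTG on either strand, was searched in the 250 bases before the start in RefSeq's promoter table (GRCm38.p6). It was present in 19 of 40 windows of this list (47.5%), in 16.6% of all windows and in 21.9% of those of tested genes. The list was chosen to hold targets of the hypoxia-inducible factor, so its share describes the list and not pInv. Windows of Egln3 (chr12:54203875-54204124, minus strand), Ldha (chr7:46845554-46845803, plus strand) and Aldoa (chr7:126799255-126799504, minus strand) are shown because the members lay below both wild types and the windows overlap no GENCODE exon. They run 5′ to 3′, with the matches in capitals.
Egln3: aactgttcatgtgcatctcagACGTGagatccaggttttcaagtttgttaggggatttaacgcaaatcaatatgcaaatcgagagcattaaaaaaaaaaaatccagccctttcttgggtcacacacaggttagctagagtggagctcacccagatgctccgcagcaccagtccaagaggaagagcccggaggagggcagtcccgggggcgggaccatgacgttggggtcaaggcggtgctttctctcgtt
Ldha: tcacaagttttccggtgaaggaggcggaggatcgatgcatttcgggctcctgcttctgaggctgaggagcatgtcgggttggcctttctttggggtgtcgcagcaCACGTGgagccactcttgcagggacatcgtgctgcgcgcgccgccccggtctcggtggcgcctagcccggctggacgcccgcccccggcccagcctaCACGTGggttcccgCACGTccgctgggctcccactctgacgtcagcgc
Aldoa: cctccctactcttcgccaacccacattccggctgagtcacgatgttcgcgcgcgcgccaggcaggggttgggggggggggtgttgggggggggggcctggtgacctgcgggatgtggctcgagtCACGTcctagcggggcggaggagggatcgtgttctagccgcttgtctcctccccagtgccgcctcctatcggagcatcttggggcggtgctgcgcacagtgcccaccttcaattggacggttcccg
Egln3 and Aldoa have 1 match each, and Ldha 5 when both strands are counted. Aldoa, an aldolase of glycolysis, stood at 396 CPM in pInv against 472 and 591. A match is a description of letters and shows no binding.

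Ribosomal protein genes lay on the high side. Of 77 tested cytosolic ribosomal proteins, pInv was above both wild types in 38, between in 32 and below in 7. It was the highest of the 7 libraries in 23, where 13.8% of all tested features had pInv highest. The median log2 difference was 0.25. The median was 0.11 against WT1 and 0.35 against WT2, and 0.25 without the blocks. Rplp2, of the ribosomal stalk, stood at 4859 CPM in pInv against 3103 and 2891 and at 3326 or below in the other 4. Rps12 stood at 11201 CPM against 8215 and 5211, with 7869.6 the highest elsewhere. Rplp2 and Rps12 were both highest in pInv, as was Rps19 at 2133 CPM against 1521 and 1586. Many of these proteins have processed pseudogenes, so their 3′ counts are uncertain. The share of ribosomal RNA precursor was also lowest in pInv, at 12.9%, and its part in these levels was not tested. Translation factors gave 11 above, 18 between and 6 below of 35, a share above both of 31.4% near the 29.0% of all features. Their median of 0.11 was 0.04 against WT1 and 0.15 against WT2.

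Targets of p53, the stress-activated tumour suppressor, had 12 of 26 tested members above both wild types, 8 between and 6 below, or 46.2% above where all features had 29.0%. The median of 0.16 was 0.29 against WT1 and 0.09 against WT2, and 0.25 without the blocks. Mdm2, the ligase that degrades p53, stood at 146 CPM in pInv against 83.7 in WT1 and 54.3 in WT2, and at 66.3 to 94.5 in the other 4. Its ratio to the nearer wild type was 1.74 (95% interval 1.46 to 2.08). Bbc3, which encodes the cell death protein PUMA, stood at 118 CPM against 86.1 and 60.0, and at 67.7 to 102 elsewhere. Mdm2 and Bbc3 were highest in pInv. Tnfrsf10b, a death receptor, had 17 counts against 4 and 1, also the highest level, and Plk2 had 6 counts against 11 and 6. No p53 target passed the test, and 2 had an unadjusted p under 0.05.

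**Figure D5:**
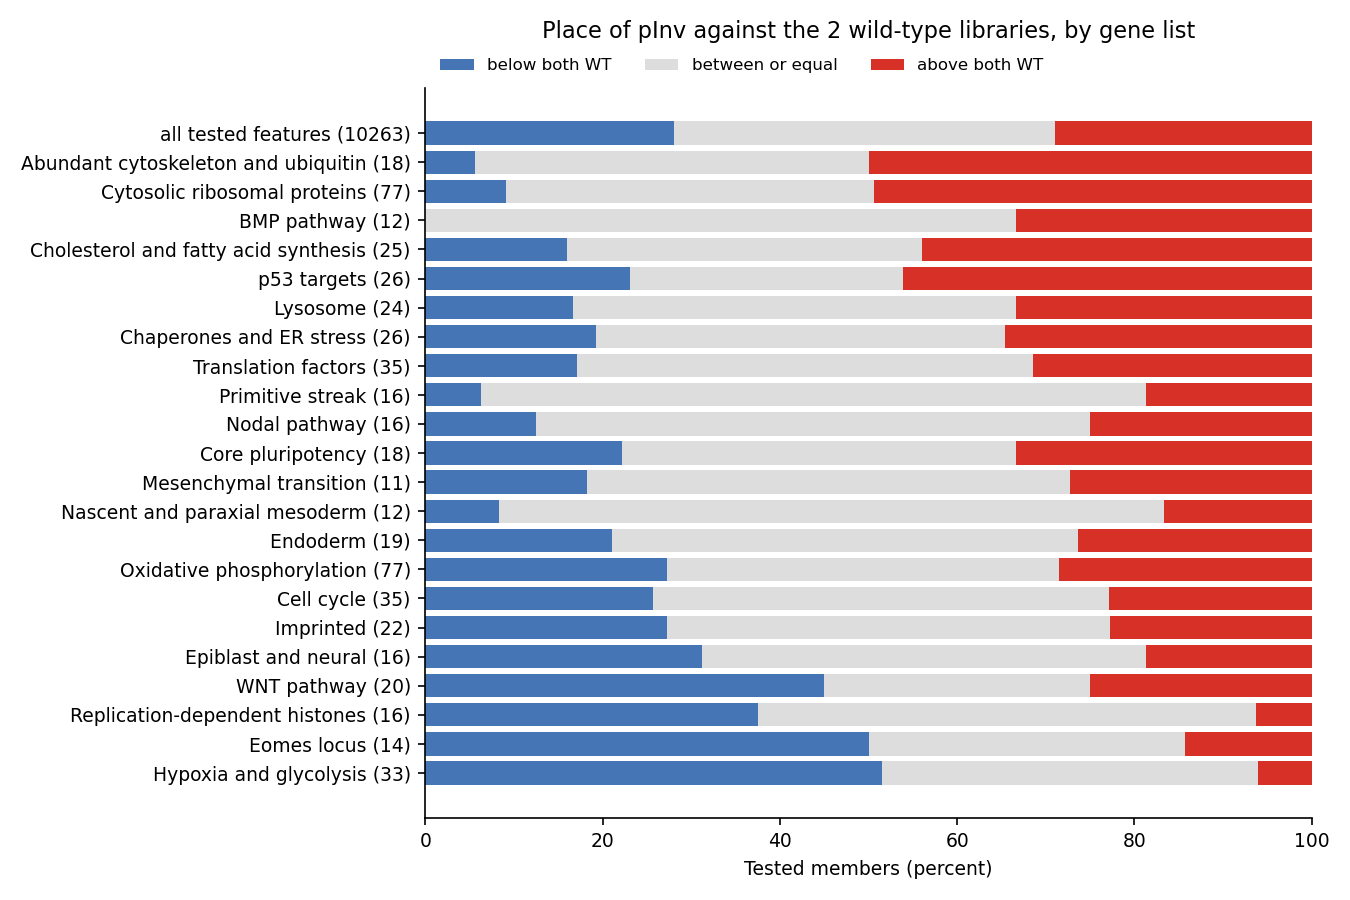
Share of the tested members of each gene list (number in brackets) for which pInv lay below both wild-type libraries, between them or above both, for lists with 10 or more tested members; the top bar is all 10263 tested features. Hypoxia and glycolysis had 51.5% of members below both, and ribosomal proteins had 49.4% above both.

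Genes of the primitive streak and mesoderm mostly lay between the wild types, which differed from each other. Of 16 streak genes, pInv was above both in 3, between in 12 and below in 1, against 29.0%, 43.0% and 28.0% of all features. Their median was -0.30 against WT1 and 0.79 against WT2, so no direction can be given. Mixl1, a homeobox factor of the streak, stood at 88.4 CPM in pInv, 105 in WT1 and 7.66 in WT2. Lhx1, a factor of anterior mesendoderm, stood at 274 CPM, 565 and 61.9. Foxa2, a pioneer factor of endoderm, stood at 162 CPM, 331 and 90.0. In all 3 genes WT2 was the lowest of the 7 libraries, and pInv the next lowest for Lhx1 and Foxa2.

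Of the 12 nascent mesoderm genes, 9 lay between, with medians of -0.74 against WT1 and 0.77 against WT2. Nodal, the ligand that maintains epiblast and streak, stood at 106 CPM in pInv against 71.8 and 103, the highest of 7. Its ratio to WT2 was 1.03, with a counting interval that included 1 (0.837 to 1.26). Of 16 genes of the Nodal pathway, 4 lay above both, 10 between and 2 below. Foxh1, the nuclear partner of SMAD2 and SMAD3, stood at 75.8 CPM against 59.4 and 30.0, and Smad3 at 8.12 CPM (18 counts) against 15.6 and 13.4. For Smad3, pInv was the lowest of 7, and for Foxh1 it was exceeded by pKO1 (77.8) and KD (92.8). The Smad3 ratio to WT2 was 0.606, with a counting interval that included 1 (0.304 to 1.19). BMP pathway genes gave 4 above, 8 between and 0 below of 12. All features had 29.0% above both, 43.0% between and 28.0% below.

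WNT pathway genes gave 5 above, 6 between and 9 below of 20, against 29.0%, 43.0% and 28.0% of all features. Their median of -0.29 was -0.33 against WT1 and 0.05 against WT2, so its direction turned with the wild-type library. Lgr5, a WNT-induced receptor of R-spondins, had 4 counts in pInv against 28 and 7. Lef1, a nuclear effector of WNT, stood at 18.0 CPM against 30.7 and 24.9. Axin2, a feedback inhibitor, stood at 7.67 CPM against 9.97 and 12.1. Lgr5 and Lef1 were lowest in pInv among the 7 libraries, and Axin2 was lower in KD (5.89). The counting interval of the ratio to WT2 included 1 for both Lgr5 (0.0867 to 1.59) and Lef1 (0.455 to 1.16). For Axin2 the interval of the ratio to WT1 also included 1 (0.39 to 1.48). Of the 20 genes, 8 lie in the blocks, and without them 3 of 12 were above both and 4 below.

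Pluripotency genes showed no common place, with 6 above, 8 between and 4 below of 18, against 29.0%, 43.0% and 28.0% of all features. Their median was -0.05 in the fit, 0.11 against WT1 and 0.12 against WT2. Klf2, a factor of naive pluripotency that lies on chromosome 8, had 4 counts in pInv against 11 and 18, against the direction of its chromosome. Epiblast and neural genes gave 3 above, 8 between and 5 below of 16. Genes of epithelial to mesenchymal transition gave 3 above, 6 between and 2 below of 11. Of these, Cdh1 was the only one at least 2-fold outside both wild types, and Twist1, a mesenchymal factor, had 12 counts in pInv against 11 and 3. Endoderm genes gave 5 above, 10 between and 4 below of 19.

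Cholesterol and fatty acid synthesis genes gave 11 above, 10 between and 4 below of 25, against 29.0%, 43.0% and 28.0% of all features. Their median of 0.18 was 0.24 against WT1 and 0.06 against WT2. Cyp51, a sterol demethylase, stood at 244 CPM in pInv against 140.4 and 166, with 180.3 the highest elsewhere. Fdft1, squalene synthase, stood at 128 CPM against 87.3 and 71.5, with 108 the highest elsewhere. Cyp51 and Fdft1 were highest in pInv, while Dhcr7 of the same pathway was lowest, as given above. Replication-dependent histones gave 1 above, 9 between and 6 below of 16, with a median of -0.40 that was 0.10 against WT1 and -0.77 against WT2, so its direction turned with the wild-type library. Histone messages largely lack poly(A) tails, so a 3′ kit sees only part of them.

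Oxidative phosphorylation genes were evenly spread, with 22 above, 34 between and 21 below of 77 and a median of 0.04 (-0.04 against WT1 and 0.13 against WT2). The shares were 28.6%, 44.2% and 27.3%, near the 29.0%, 43.0% and 28.0% of all features. Atp5l, a subunit of ATP synthase, stood out at 1133 CPM in pInv against 639 in WT1 and 464 in WT2, and between 532 and 647 in the other 4. Its ratio to the nearer wild type was 1.77 (95% interval 1.66 to 1.89), and pInv was the highest of 7. Cell cycle genes gave 8 above, 18 between and 9 below of 35. Bub1b, a spindle checkpoint kinase, stood at 9.93 CPM against 16.7 and 36.4, the lowest of 7. The 95% interval of its ratio to WT1 included 1 (0.337 to 1.02). Ccne2, an S phase cyclin, stood at 27.5 CPM against 16.0 and 10.9, the highest of 7.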

How the data were processed

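Polyadenylated RNA of day 4 embryoid bodies was read from the 3′ end in 7 libraries, grouped by title. The authors deposited RSEM estimates per gene and library, with columns of expected counts, of TPM and of FPKM per the file headers. The build was mm9, per the submitters' processing notes. Expected counts were deposited without normalization and rounded here to whole numbers. The authors' TPM values, scaled to transcript length and a fixed total, served in 1 alternative, and the deposited FPKM values were not used. How reads were trimmed, stranded and deduplicated is not given in the sources used here. Reads of overlapping genes cannot be separated without strand.

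Features (24990) were named from RefSeq gene tables of GRCm38, which is newer than mm9 and was used for names, chromosomes and gene order. Over the 17542 features matched to a GENCODE transcript, the gene model was longer than the transcript by a median of 1999 bases, and by 2000 within 100 in 69.1%. The models of Fgd5 and Fras1 each span over 90 Mb and took 5.31% to 6.58% of a library's counts, so both were left out. Of 761 list entries, 740 matched a single gene, 18 matched merged genes and 3 had no match.

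Counts were fitted with edgeR 4.0.16 in R 4.3.3 (filterByExpr, TMM, quasi-likelihood, prior count 2, Benjamini-Hochberg adjustment), with all 7 libraries and a coefficient per group. The spread came from WT and pKO (2 residual degrees of freedom, prior 5.86), and pInv was assumed to vary like them. The 95% interval of a ratio between 2 libraries is exact binomial, with 0 counts set to 3 in the ratio. Running and chromosome medians used 0.5 CPM added. The steps were tested on simulated data. Alternatives were DESeq2 1.42.0, limma 3.58.1 (voom and TPM), other filters, scalings and level minimums, a replicate block and each replicate left out. Another took groups from the genotype field, which set pKO1 against pKO2 and pInv.

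The members and gene lists were chosen with earlier results of these data known. Named genes are Eomes, the 12 largest and 12 smallest ratios to the nearer wild type among single genes 2-fold outside both, the 5 smallest p, and up to 4 members a list by distance to the nearer wild type. The markers of cell types were listed apart. One gene of the 12 smallest ratios is not reported here. Coprs, Exosc6, Ldha, Aldoa, Tpi1, Slc16a3, Gapdh, Strap and the blocks on chromosomes 6, 8 and 11 were chosen after their values were seen.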

Additional observations from a re-analysis of the deposited data

How the results depend on the processing

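The count of called genes was 0 under 11 of 13 alternatives, among them DESeq2 (40 with an unadjusted p under 0.05), limma-voom (155) and limma on TPM (207). It was 6 with no filter on low counts, namely Il2, Zfp980 and further copies of Srp54c, Gm6710, Gm3264 and Btg3, and 7 with groups from the genotype field, all copies of Rn4.5s. Groups from the genotype field set pKO1 against pKO2 and pInv, with neither WT library, so that alternative compared other libraries than pInv against WT. Its Eomes difference was -0.31. For pInv against WT, Eomes changed sign without WT replicate 2 (-0.24) and without pKO replicate 1 (-0.00). The range over the libraries left out was -0.24 to 0.32. Malat1 ranged from -0.00 (without WT replicate 2) to 0.44 (without WT replicate 1). The count at least 2-fold above both wild types was 17 at a 20 CPM minimum and 109 at 5 CPM, and the count below was 11 and 108. Leaving out WT1 or WT2, so that 1 wild-type library stays, gave 181 to 838 above and 200 to 476 below. At any distance it gave 5011 to 5240 above and 4916 to 5171 below. Unscaled CPM moved the split of features above and below both from 2977 and 2873 to 3630 and 2292. The median difference of chromosome 8 genes from WT was 0.28, and 0.01 to 0.50 with 1 wild-type library. That of chromosome 11 was -0.19, and -0.44 to 0.03.

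With the replicate block 0 genes were called and 577 had an unadjusted p under 0.05. The block covered the numbered pairs of WT and pKO only, and the number in the title KD1 was left out. Nothing says that a number marks a shared culture. The differences WT1 to WT2 and pKO1 to pKO2 correlated at 0.481 across 4840 genes, which are not independent. Depth limits the genes under 20 CPM, 29 of the 46 above and 37 of the 48 below, all of which rest on under 50 counts in pInv.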

Other observations

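Imprinted genes gave 5 above both wild types, 11 between and 6 below of 22, against 29.0%, 43.0% and 28.0% of all features. Mest stood at 6.32 CPM in pInv (14 counts) against 15.2 in WT1 and 13.4 in WT2, the lowest of 7, and Ndn at 7.67 CPM against 14.4 and 17.2, with Ctrl lower at 7.56. The non-coding RNA Rian of the Dlk1 to Dio3 cluster stood at 216 CPM against 125 and 113, while pKO1 (262), pKO2 (221) and KD (320.3) stood higher, so the wild types were the low libraries. Dnmt3l, a cofactor of de novo DNA methylation, stood at 16.7 CPM (37 counts) against 38.7 and 32.6, and KD was lower at 8.84.

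Of 18 abundant cytoskeleton and ubiquitin genes, pInv lay above both wild types in 9, between in 8 and below in 1. Their median was 0.09 against WT1 and 0.85 against WT2. All features had 29.0% above both, 43.0% between and 28.0% below. Tuba1b stood at 4352 CPM in pInv against 3177 and 1742, and Tubb2b at 643 CPM against 361 and 481, both the highest of 7. Lysosome genes gave 8 above, 12 between and 4 below of 24. Cd63 stood at 501 CPM against 314 and 239, but Ctrl (529.9) and KD (523) were higher.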
